A study of Canis lupus familiaris with 14 samples.

Results

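The 6 genes CHL1, SOX10, S100B, CDH19, MBP and PMP22 were followed through paired bone and osteosarcoma samples of 7 dogs. They were taken by name, as genes of Schwann cells and of neural adhesion. Identifiers came from the symbols that the supplementary tables give beside Ensembl identifiers, and all 6 could be paired, each with 1 identifier. The deposited table holds 30951 genes, of which 27655 had at least 1 count and 2292 could be paired with a symbol. Every dog gave a bone library from phalanx P2 of the amputated limb and a library from the osteosarcoma of the same limb. No dog had received chemotherapy, and chest radiographs gave no evidence of macrometastases in the lung according to the study. Dogs A and F were Golden Retrievers, dog B was a Rottweiler, dog C a Doberman Pinscher, dogs D and G were Greyhounds and dog E is labelled Great Pyranees. The tumors lay in the left distal radius in dogs A, C and E, the right distal radius in dog F, the left proximal humerus in dog D, the left distal femur in dog B and the right distal tibia in dog G. Bone RNA was extracted by a method made for bone, and tumor RNA with Tri-Reagent. The study describes the bone as freed of marrow and of all cells not enclosed in its matrix. Tissue, extraction method and skeletal site therefore changed together and cannot be told apart. Total counts ran from 22564544 to 34479429 in the 7 bone libraries and from 18650945 to 32887213 in the 7 tumor libraries.

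Bone is innervated, and its nerve fibers run mainly with vessels in the periosteum and the canals of the cortex. Schwann cells are the glia of these nerves. They wrap axons in myelin or bundle thin axons without it, and SOX10 is the transcription factor on which their identity and their myelin genes depend. S100B is a calcium-binding protein used as a marker of Schwann cells, and it is also made by cartilage cells and fat cells. CDH19 is a cadherin of Schwann cells and their precursors. MBP and PMP22 are proteins of myelin, but the MBP locus also gives transcripts in immune cells and PMP22 is made by many connective tissue cells. CHL1, the close homolog of L1, is a cell adhesion molecule of the immunoglobulin superfamily made by neurons and glia. Counts were taken per gene, so the transcripts of MBP could not be separated.

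All 6 genes had a lower mean level in tumor than in bone. Levels are given as CPM (read counts relative to library size) scaled by the trimmed mean of M-values (TMM), and they were not divided by gene length, so levels of different genes are not compared. The quasi-likelihood test of edgeR, with dog and tissue in the design, was used, and a gene was called at an FDR under 0.05 over all 27655 genes. CHL1, S100B and CDH19 fell in tumor, which makes 3 of the 6 genes, while SOX10, MBP and PMP22 did not pass. Of all genes tested, 2.14% were called lower, and of the genes with a symbol, 22.5% were. The second share is the closer background, because symbols could be had only for genes that move in these same libraries: by the DESeq2 Wald test, the test of the study, 55% of the 2292 genes with a symbol were lower and the other 45% higher. A gene could therefore be followed only if DESeq2 calls it, and the direction of the 6 genes is not independent evidence. The median log2 fold-change was -3.28 over the 6 genes, -0.80 over the genes with a symbol and -0.05 over all genes tested. In bulk tissue, fewer cells of a type and less RNA per cell cannot be told apart.

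CHL1 (ENSCAFG00000006248) had 47.2, 55.5, 21.7, 39.2, 42.1, 49.3 and 22.5 CPM in the bones of dogs A to G, taken alphabetically. The tumors held 0.376, 0.281, 0.0891, 0.381, 1.56, 0 and 0.741 CPM in the same order. Every tumor lay far below every bone, and the bones differed from each other by 2.55-fold at most. In reads, the 7 tumors together held 85 CHL1 reads against 8907 in the 7 bones. The tumor of dog F held none, so its level was at least 551-fold lower than that of its bone when 3 reads are taken as the limit for a count of 0. The tumors of dogs E and G kept the most, with 37 and 18 reads, and were 27.1-fold and 30.4-fold below their bones. These limits cover counting error only. Tumor relative to bone, CHL1 had a log2 fold-change of -6.73 ± 0.68 (SE) and an edgeR FDR of 0.00205. Omitting single dogs moved it between -7.18 and -6.31, with an FDR of 0.00935 at most.

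CDH19 (ENSCAFG00000000052) was the scarcest of the 6 genes in reads. Bone levels were 0.951 CPM in dog E, a median of 2.93 and 4.36 in dog A, and 4 of the 7 tumors, those of dogs B, C, E and F, had 0 reads. The other tumors had 4 reads in dog A, 5 in dog D and 5 in dog G, against 676 reads in the 7 bones together. Every tumor was below every bone, although the bone of dog E, at 0.951 CPM from 21 reads, stood well under the other bones. Tumor relative to bone, CDH19 had a log2 fold-change of -5.66 ± 0.89 (SE) and an edgeR FDR of 0.00865. With 3 reads as the limit for a count of 0, the tumor was at least 7.53-fold lower than bone in dog E and at least 46.9-fold lower in dog B.

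S100B (ENSCAFG00000012228) had bone levels of 3.35 CPM in dog E, a median of 14.1 and 33.6 in dog A, the widest relative range among the 6 genes. Tumor levels were 0.571 CPM in dog D, a median of 1.07 and 2.61 in dog E. The tissues did not overlap, but the margin came down to dog E, whose bone at 3.35 CPM was 1.28-fold above its tumor at 2.61 CPM. In the other dogs the tumor was lower by 3.39-fold (dog F) to 46.1-fold (dog D). Tumor relative to bone, S100B had a log2 fold-change of -3.45 ± 0.60 (SE) and an edgeR FDR of 0.0135, and the FDR was 0.0458 at most when single dogs were omitted.

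SOX10 (ENSCAFG00000001436) showed bone levels of 8.79, 10.6, 6.89, 2.3, 2.9, 2.52 and 5.06 CPM, again from dog A to dog G. The tumors held 3.38, 0.309, 0, 0.0635, 1.56, 0.388 and 1.81 CPM in the same order. SOX10 was lower in tumor in 7 of 7 dogs, but the tumor of dog A lay above the bones of dogs D, E and F, so the tissues overlapped. Of the tumors, dogs A, E and G kept 54, 37 and 44 reads and were 1.86-fold to 2.79-fold below bone, while dogs B, C, D and F had 11, 0, 2 and 13 reads. Tumor relative to bone, SOX10 had a log2 fold-change of -3.11 ± 0.87 (SE) and an edgeR FDR of 0.08, which did not pass the threshold. It did not pass with any single dog omitted either (FDR = 0.0808 to 0.176 in the edgeR test).

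MBP (ENSCAFG00000000016) had bone levels of 9.87 CPM in dog E, a median of 13.5 and 29.2 in dog A. Tumor levels were 2.33 CPM in dog F, a median of 7.12 and 18.1 in dog B. It was 10.1-fold lower in the tumor of dog A and 5.77-fold lower in that of dog F. In dogs B and D the difference was 1.23-fold and 1.17-fold, and in dog E the tumor was the higher one, at 11.2 against 9.87 CPM. Tumor relative to bone, MBP had a log2 fold-change of -1.15 ± 0.43 (SE) and an edgeR FDR of 0.182.

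PMP22 (ENSCAFG00000017913) was the steadiest of the 6 genes among bones, with 44.2 CPM in dog E, a median of 58.3 and 70.7 in dog F and a coefficient of variation of 17.7%. Tumors were far less alike, with 6.25 CPM in dog D, a median of 28.2 and 67.4 in dog A. The tumor of dog A was the only one above its bone, at 67.4 against 45.8 CPM, while that of dog D was 9.41-fold below. Tumor relative to bone, PMP22 had a log2 fold-change of -1.15 ± 0.37 (SE) and an edgeR FDR of 0.126. On the log2 scale the SD of PMP22 was 0.25 among bones and 1.03 among tumors (n = 7 dogs each).

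**Figure D1:**
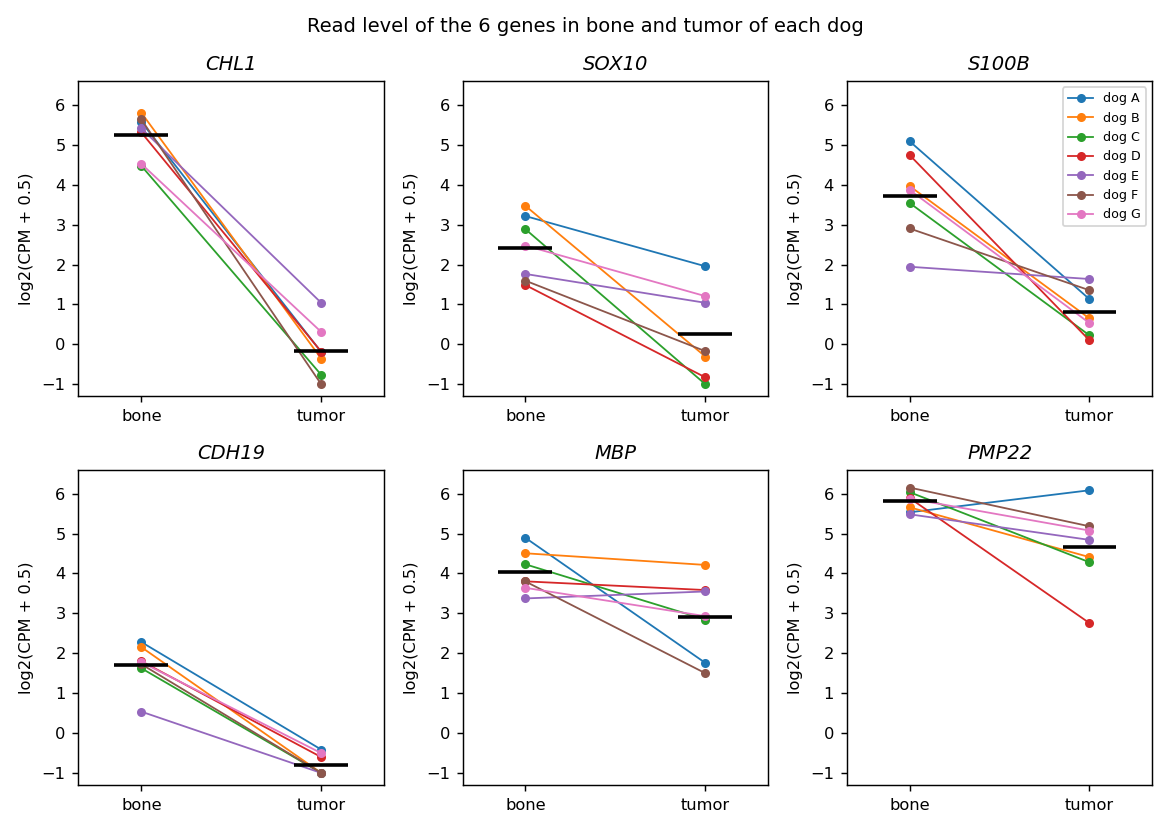
Level of each of the 6 genes in the bone and the tumor of each dog, as log2(CPM + 0.5), where a line joins the 2 libraries of 1 dog and black bars are means over 7 dogs. The tumors of CHL1, S100B and CDH19 all lie below the bones, whereas the tumor of dog A is above some bones for SOX10 and above its own bone for PMP22.

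Tumor lay below bone in all 7 dogs for 4 of the 6 genes, namely CHL1, SOX10, S100B and CDH19, and in 6 of 7 dogs for MBP and PMP22. Of all genes with counts, 4.86% were lower in all 7 dogs. This share was not counted among the genes with a symbol, the closer background. Every tumor was below every bone for 3 of the 6 genes, against 1.5% of all genes and 14.4% of the genes with a symbol. The DESeq2 Wald test called 6 of the 6 genes lower, a number fixed by the pairing with symbols, with adjusted p-values from 1.11e-29 for CHL1 to 0.0326 for MBP and of 0.000156 for SOX10. Of all genes with an adjusted p-value it called 11.3% lower and 9.6% higher. According to the study, the bone library of dog B and the tumor library of dog A had the lowest RNA integrity. Without both dogs, an alternative chosen after seeing the data, CHL1 was the only gene of the 6 still called (log2 fold-change -6.47, FDR = 0.0336 in the edgeR test), and 135 genes in all were called lower in place of 592.

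Changes were then compared dog by dog on the log2(CPM + 0.5) scale, which understates the change of genes with few reads. CHL1 had the most negative change on this scale in each of the 7 dogs, from -6.64 in dog F to -4.21 in dog G. Relative to SOX10 and CDH19, the added 0.5 CPM left no other order possible. Dog E had the smallest mean change, with 2 of the 6 genes lower by more than 1 on this scale and a mean of -1.23 over the 6 genes, and its bone also had the lowest S100B, CDH19, MBP and PMP22. In dog C all 6 genes were lower by more than 1, with a mean change of -3.03. The TMM factor was lowest in the bone of dog E (0.641) and the tumor of dog A (0.695). With DESeq2 size factors in its place, edgeR again called CHL1, S100B and CDH19 and none of the other 3 genes.

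**Figure D2:**
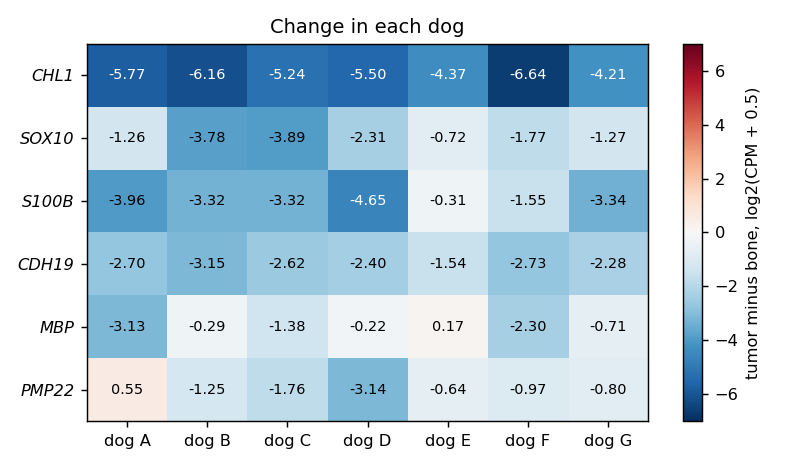
Difference between tumor and bone of the same dog for each of the 6 genes, on the log2(CPM + 0.5) scale. CHL1 is darkest in every dog (-4.21 to -6.64), SOX10 ranges from -0.72 in dog E to -3.89 in dog C, and the positive cells are PMP22 in dog A (0.55) and MBP in dog E (0.17).

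Whether some members fell further than others was tested for the 15 pairs of the 6 genes by exact sign-flip permutation over the 7 dogs (two-sided, Benjamini-Hochberg over the 15 pairs). The strong fall of CHL1 in these libraries was known when the 6 genes were chosen, so the p-values of its pairs describe these dogs and are not independent support. CHL1 fell further than S100B in 7 of 7 dogs, with a mean difference of -2.49 ± 1.60 on the log2 scale (SD, n = 7, exact permutation p = 0.0156, adjusted p = 0.0469). It also fell further than MBP (-4.29 ± 1.09) and PMP22 (-4.27 ± 1.41), each in 7 of 7 dogs and at the same p, which is the smallest that 7 dogs can give. The difference between CHL1 and SOX10 had the same p and a size of -3.27 ± 1.21. However, with 0.5 CPM added, CHL1 would have the more negative change in all 7 dogs even if no tumor held a SOX10 read. The direction and this p were therefore fixed by the CHL1 values and the bone levels of SOX10, and are no test of the pair. The difference between CHL1 and CDH19 had the same p and a size of -2.92 ± 0.59. That p was fixed in the same way, whatever the CDH19 reads of the tumors. The adjusted p of 0.0469 counts both of these pairs among those at the smallest p. With 0.1 CPM added in place of 0.5 CPM, the difference between CHL1 and CDH19 was -2.36 ± 0.99. Among the other 10 pairs no adjusted p was under 0.05 with 0.5 CPM added, and the smallest unadjusted ones were those of S100B and CDH19 against PMP22 (exact permutation p = 0.0312, adjusted p = 0.067 each). With 0.1 CPM added, SOX10 against PMP22, CDH19 against MBP and CDH19 against PMP22 passed too (adjusted p = 0.0293 each, exact permutation test). The mean difference between S100B and PMP22 was -1.78 ± 1.54, and S100B had the more negative change in 6 of 7 dogs. With 6 dogs, 5 pairs at the smallest p that the test can give would have an adjusted p of 0.0938.

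The reads of a gene per SOX10 read in the same library describe its level relative to SOX10. CHL1 had 3.15 to 19.6 reads per SOX10 read among the 7 bones (median 5.37). Among the 6 tumors with SOX10 reads it had 0 to 6.00 (median 0.659), the highest being dog D with 2 SOX10 reads. PMP22 had 4.73 to 28.0 in bone (median 11.5) and 18.1 to 98.5 in tumor (median 43.6). S100B had 1.16 to 11.4 in bone (median 2.77) and 0.5 to 9.0 in tumor (median 2.57). MBP had 2.10 to 5.85 in bone (median 3.32) and 0.852 to 181 in tumor (median 6.59). CDH19 had 0.328 to 1.3 in bone (median 0.496) and 0 to 2.5 in tumor (median 0.037). For every one of these genes, CHL1 and PMP22 included, the ranges of bone and tumor overlapped. These ratios depend on gene length and are compared only between libraries.

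Among the 7 bones, the members did not all follow SOX10. The bones of dogs A, B and C had the highest SOX10 levels and those of dogs D, E and F the lowest. CHL1 had another order, since the bone of dog C had the lowest CHL1 and that of dog F was exceeded only by the bone of dog B. Over 15 pairs, Pearson's r of log2 levels ran from -0.39 to 0.85 with a median of 0.18. An unadjusted p under 0.05 was found for 3 pairs and an adjusted one for none. The highest was S100B with CDH19 (r = 0.85, exact permutation p = 0.0111, adjusted p = 0.167; Spearman's rho = 0.93, p = 0.00675, adjusted p = 0.101; n = 7), and r was 0.32 without the 2 bones farthest from the median of S100B. SOX10 and MBP had r = 0.81 (exact permutation p = 0.0347, adjusted p = 0.177; rho = 0.64, p = 0.139, adjusted p = 0.521; n = 7), with r = 0.82 without the 2 bones farthest from the median of SOX10. For CHL1 and SOX10, r was -0.02 (exact permutation p = 0.961, adjusted p = 0.967; rho = 0.25, p = 0.595, adjusted p = 0.891; n = 7) and 0.71 without the 2 bones farthest from the median of CHL1. Over the 15 pairs among tumors, r ran from -0.63 to 0.78, with 1 unadjusted p and 0 adjusted p under 0.05.

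The genes most like CHL1 over all 14 libraries were sought among 2100 genes with a symbol and a mean of at least 1 CPM. They were NALCN, a sodium leak channel (Pearson's r = 0.98), NRG2, a ligand of the neuregulin family (0.96), KLF15, a transcription factor of metabolism (0.96), GPM6A, a neuronal membrane glycoprotein (0.96), and PLLP, plasmolipin, a myelin protein (0.96). NALCN, at 5.82 ± 2.07 CPM in bone and 0.0331 ± 0.0642 in tumor (SD, n = 7), had a log2 fold-change of -7.72 ± 0.74 (SE) and an edgeR FDR of 0.00195. CDH19 stood at place 20 of 2100 and S100B at 132, whereas SOX10 was at 390, MBP at 811 and PMP22 at 900. All 14 libraries share the difference between the tissues, which enters every such likeness.

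For SOX10, the 5 most alike genes over the 14 libraries included ATP1B2, a subunit of the sodium pump (r = 0.94), FRZB, a secreted Wnt antagonist (r = 0.93), and FXYD1, a regulator of the sodium pump (r = 0.92). Within the 7 bones alone the 5 genes most like SOX10 included ICAM4, CYTL1, MAP4K1 and SSH3 (r = 0.95 to 0.97 over 2042 genes), and MBP stood at place 51. With 7 points these are descriptions.

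**Figure D3:**
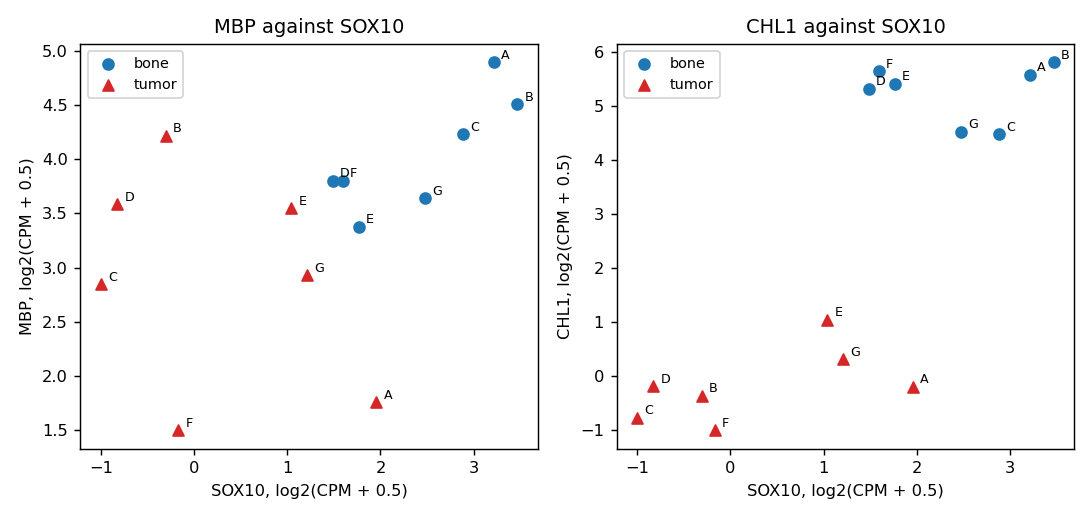
MBP and CHL1 against SOX10 in the 14 libraries, as log2(CPM + 0.5), with circles for bone, triangles for tumor and letters for the dogs. The bones of dogs A, B and C are the highest for both MBP and SOX10 (r = 0.81 over 7 bones, adjusted p = 0.177 by the exact permutation test), whereas CHL1 forms 2 separate groups with all bones above all tumors.

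Other Schwann cell genes were taken from a list of 32, of which 14 could be paired with an identifier. By edgeR 5 of the 14 fell and 0 rose, and 9 did not pass, with a median log2 fold-change of -2.85 and no positive one. All 14 come from the genes with a symbol, of which 22.5% were called lower, with a median of -0.80, against 2.14% of all genes. The median was again -2.85 with fitted values of genes without tumor reads replaced by their bound. NGFR (ENSCAFG00000016934), the p75 neurotrophin receptor of Schwann cells and other stromal cells, had 163 ± 87.2 CPM in bone and 21.5 ± 23.4 in tumor, without overlap between the tissues (log2 fold-change -3.67 ± 0.53, SE, with an edgeR FDR of 0.00632). SCN7A (ENSCAFG00000011648), a sodium channel of Schwann cells, fell with a log2 fold-change of -5.23 and without overlap (FDR = 0.00849 in the edgeR test). EGR2, which drives myelination together with SOX10, had 4.55 to 26.7 CPM in bone and 1.94 to 7.55 in tumor and did not pass (FDR = 0.0964). Nor did GFAP, GLDN and ADGRG6, with FDR values of 0.0999, 0.0907 and 0.0936 in the edgeR test. Without dog A, 3 of the 14 genes were called, and without dogs A and B, 2 were. Among all genes with a symbol, 515 were called lower with every dog kept, 351 without dog A and 126 without dogs A and B. DESeq2 called all 14 lower, but every gene with a symbol is called by that test, 55% of them lower, and these counts say nothing about the other 18 genes of the list.

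Neural adhesion genes were taken from a list of 30, of which 11 could be paired. By edgeR 5 fell, 0 rose and 6 did not pass, with a median log2 fold-change of -2.0, beside 22.5% called lower and a median of -0.80 among genes with a symbol and 2.14% called lower among all genes. CNTN1 (ENSCAFG00000009872), a contactin that binds members of the L1 family at the axon, fell from 7.67 ± 3.39 CPM in bone to 0.58 ± 0.709 in tumor (SD, n = 7, log2 fold-change -4.41 ± 0.69, SE, with an edgeR FDR of 0.00849). NCAM1 (ENSCAFG00000013844), the neural cell adhesion molecule, which bone-forming cells also make, had 111 to 280.3 CPM in bone and 12.1 to 105 in tumor, without overlap (FDR = 0.00702 in the edgeR test). CADM3 (ENSCAFG00000011731), ANK3 (ENSCAFG00000012694) and CNTNAP1 (ENSCAFG00000014854) fell with log2 fold-changes of -3.43, -2.32 and -1.34 (FDR = 0.0339, 0.0249 and 0.0406 in the edgeR test). NFASC, neurofascin of the L1 family like CHL1, had 0.648 to 6.29 CPM in bone and 0.119 to 2.78 in tumor, overlapping between the tissues (log2 fold-change -1.24 ± 0.48, SE, with an edgeR FDR of 0.2). Omitting single dogs left 2 called (without dog B or F), 3 (without C, D, E or G) or 4 (without A). Calls lower among all genes with a symbol came down as well, from 515 to between 303 (without G) and 400 (without E). They were 126 without dogs A and B. Without dogs A and B edgeR called 0 of the 11, although all 11 had an unadjusted p under 0.05; over the 14 libraries DESeq2 called all 11 lower, where pairing fixes the call and 55% of the genes with a symbol were lower.

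**Figure D4:**
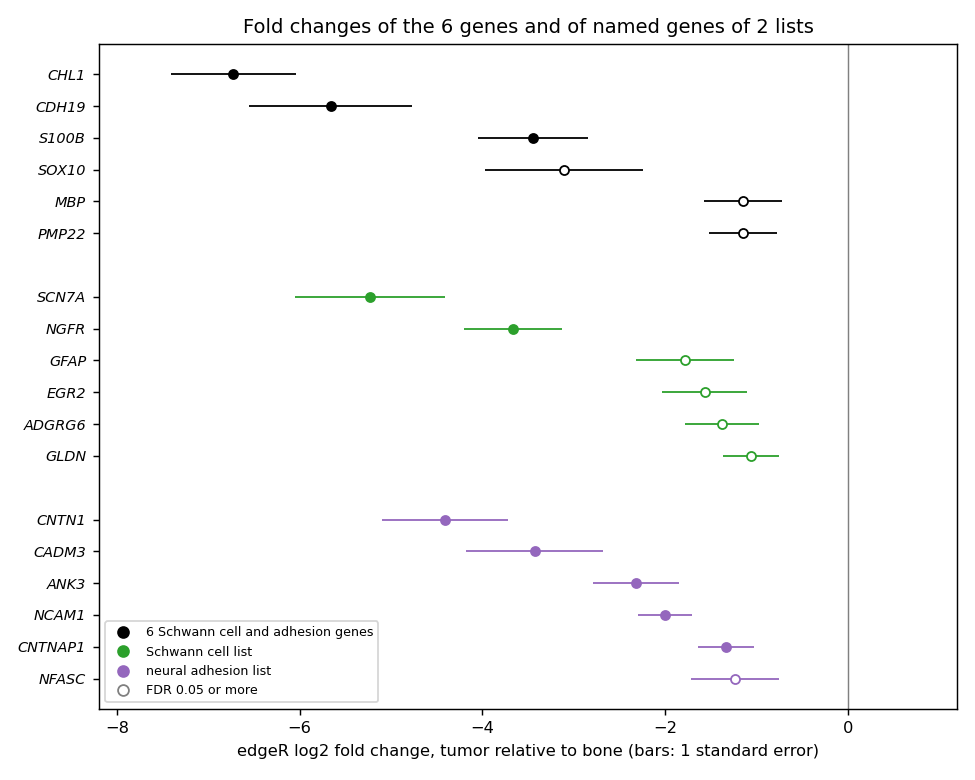
Log2 fold-change of tumor relative to bone in the edgeR test for the 6 genes and for the genes named here from the Schwann cell and neural adhesion lists, with bars of 1 standard error and open circles where the FDR was 0.05 or more. All lie below 0, from -6.73 for CHL1 to -1.06 for GLDN.

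Of 18 genes of axons and neurons only UCHL1 and NPY could be paired. NPY (ENSCAFG00000002801), a peptide of sympathetic fibers that other cells can make too, had bone levels of 15.6 CPM in dog D, a median of 31.5 and 88.6 in dog E. In tumor, NPY fell to 0 CPM in dog B, a median of 1.3 and 13.6 in dog E (log2 fold-change -4.65 ± 0.75, SE, with an edgeR FDR of 0.00942). UCHL1 (ENSCAFG00000015878), a ubiquitin hydrolase abundant in neurons and used as a general marker of nerve fibers, rose from 6.04 ± 1.62 to 49.1 ± 36.3 CPM and was higher in 7 of 7 tumors (log2 fold-change 2.76 ± 0.36, SE, with an edgeR FDR of 0.00473). Of all genes tested, 1.76% were called higher. Neurofilaments and peripherin, other markers of axons, were among the genes not paired. Which cells made the UCHL1 reads was not tested.

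Signals that guide or feed nerve fibers were taken from a list of 30, of which 15 could be paired. By edgeR 4 fell, 0 rose and 11 did not pass, with a median log2 fold-change of -2.02. The 4 of 15 lie near the 22.5% called lower among genes with a symbol, so this count is no result about the list. DESeq2 called 12 lower and 3 higher, namely SLIT3, NRG1 and NTF4, with adjusted p-values of 0.00429, 0.03 and 0.00261 in the Wald test. That all 15 are called is again fixed by the pairing, and among all genes with a symbol 55% were lower and 45% higher. NTF4, a neurotrophin named after its values were seen, had at most 0.0905 CPM in bone and 0.98 CPM in tumor. SLIT2 (ENSCAFG00000016608), a secreted guidance protein, had 129.8 to 255 CPM in bone and 7.75 to 140.0 in tumor (log2 fold-change -2.11 ± 0.35, SE, with an edgeR FDR of 0.0109). Its relative SLIT3 had 65.5 to 116 CPM in bone and 106 to 345 in tumor, with a positive log2 fold-change of 0.96 that did not pass by edgeR (FDR = 0.0797). NRP2 (ENSCAFG00000013191), a receptor of class 3 semaphorins, and SEMA3D (ENSCAFG00000006128), a semaphorin, both fell (FDR = 0.0102 and 0.0148 in the edgeR test). NRP2 lay at 364 to 852 CPM in bone and 65.1 to 403 CPM in tumor, with overlap. SEMA3E (ENSCAFG00000006247) fell with a log2 fold-change of -6.48 (FDR = 0.0302 in the edgeR test), although the tumor of dog B held 12.9 CPM, more than its bone. NRG1, the neuregulin on which Schwann cells depend, had 0 to 0.581 CPM in bone and 0 to 4.73 in tumor (log2 fold-change 2.53 ± 1.16, SE, with an edgeR FDR of 0.292). Without dogs A and B, 1 of the 15 genes was called lower, and among all genes with a symbol 126 were, in place of 515.

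Cells other than Schwann cells make some of the 6 genes, and the markers of such cells that passed the test were lower in tumor as well. The share of genes with a symbol that edgeR called lower, 22.5%, is the background of these counts too. Of 8 adipocyte markers, 7 could be paired and all 7 fell, with a summed level of 520 to 3130 CPM in bone and 61.2 to 235 CPM in tumor. The bones with the highest adipocyte sums were those of dogs D (3130 CPM), A (1213 CPM) and B (1120 CPM), which also had the highest S100B. Of 9 chondrocyte markers, 3 could be paired and 1, CHAD, fell, with a summed level of 144 to 5239 CPM in bone and 6.46 to 777 CPM in tumor. COL9A1 had 0 reads in at least 1 tumor, while CHAD and every paired adipocyte marker had reads in all 14 libraries. The bone of dog E had the highest chondrocyte sum and the lowest S100B. TYR, tyrosinase, was the 1 of 8 melanocyte markers that could be paired; it had 1.02 to 7.49 CPM in bone and 0 to 0.842 in tumor, with 0 reads in the tumors of dogs B, F and G, and fell (log2 fold-change -4.30, FDR = 0.0322 in the edgeR test). DCN, decorin, was the 1 of 8 fibroblast markers paired and did not pass, at 964 to 2206 CPM in bone and 218 to 1668 in tumor (log2 fold-change -1.16, FDR = 0.111). Of 8 endothelial markers, 3 could be paired and 2 fell, ESM1 and CLDN5, with a summed level of 195 to 601 CPM in bone and 34.3 to 98.8 CPM in tumor. All paired markers of these cells had reads in the 7 bones. The part of these cells in the changes of the 6 genes was not tested.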

How the data were processed

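Polyadenylated RNA was sequenced from bone and tumor of 7 dogs, giving 14 libraries. Per the labels and the study's methods, the authors trimmed reads with Trimmomatic, mapped them to CanFam3.1 with HISAT2 2.2.1 and counted them per Ensembl gene with StringTie 1.3.3; the deposited counts are raw. Strand and multi-mapping settings are not given in the sources used here, so overlapping and antisense genes could not be separated.

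Genes with at least 1 count were tested with edgeR 4.0.16 (R 4.3.3; TMM; glmQLFit and glmQLFTest; dog and tissue in the design; Benjamini-Hochberg FDR). Standard errors are the fold-change divided by the root of the F statistic. DESeq2 1.42.0 gave the Wald test and size factors. The edgeR function was tested on simulated counts without differences between dogs, so that test does not cover paired data. The libraries of a dog were treated as a pair, coming from 1 animal; deviations from tissue means correlated within dogs at a median of 0.11 over 15587 genes, above 0.1 in 6 of 7 dogs. Levels per sample are CPM, with 0.5 added before logarithms. Each tissue of a dog was sequenced once, so the spread between dogs includes technical variation.

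The 6 genes and all lists were chosen with earlier results of these data known. Symbols came from the supplementary tables alone, and all 2292 genes with a symbol are called by the DESeq2 Wald test; coordinates, lengths and sequences were not used here. The authors' fold-changes and p-values in those tables were not used. From each list, the genes of a preset group of defining genes that could be paired and up to 4 others with the smallest edgeR p were named. The 5 genes most like CHL1 and SOX10 were taken by Pearson's r. Some genes that these rules choose are not reported here by name, though list counts and medians include them. Alternatives were the DESeq2 Wald test, DESeq2 size factors, filterByExpr, tissue alone in the design, the study's thresholds, other pseudocounts, omission of each dog and, chosen after seeing the data, omission of dogs A and B.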

Additional observations from a re-analysis of the deposited data

How the results depend on the processing

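With the DESeq2 Wald test, SOX10 (log2 fold-change -3.21), MBP (-1.15) and PMP22 (-1.14) passed as well, so that 6 of the 6 genes, 14 of 14 Schwann cell genes, 11 of 11 neural adhesion genes and 12 of 15 nerve growth and guidance genes were called lower, while 3 genes of the last list were called higher. Every gene with a symbol is called by that test, 55% lower and 45% higher, so these totals are fixed by the pairing. With filterByExpr the nerve growth and guidance list had 7 genes called lower in place of 4. Among all genes with a symbol, the calls lower rose from 515 to 723. Without dogs A and B, S100B (-3.13) and CDH19 (-5.60) no longer passed, and the calls lower were 1 of the 6 genes, 2 Schwann cell genes, 0 neural adhesion genes and 1 nerve growth and guidance gene, with 5 dogs left. Among all genes with a symbol, 126 were then called lower in place of 515. With single dogs omitted, between 3 and 5 Schwann cell genes and between 2 and 4 neural adhesion genes were called. Between 303 and 400 of all genes with a symbol were called lower in those fits. Of the 15 pairs of the 6 genes, 8 differed with 0.1 CPM added, and 0 with any single dog omitted, where 5 pairs at the smallest p that 6 dogs allow would not pass. The edgeR fit without dog as a replicate block gave, in place of the paired values, a log2 fold-change of -6.35 for CHL1 and -2.40 for SOX10 (FDR = 0.0969), and changed no call on the 6 genes. No log2 fold-change of the 6 genes turned positive under any of these alternatives. Depth limits CDH19, CHL1 and SOX10 most, since 4, 1 and 1 of the 7 tumors had 0 reads.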
